A study of Drosophila melanogaster with 3 samples.

Results

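Labial-GFP chromatin immunoprecipitation from whole Drosophila melanogaster embryos gave a pooled list of 30000 ranked regions, of which the submitters' irreproducible discovery rate (IDR) procedure kept 10160 (33.9%). The regions described here are the ones it left out: 18052 of the 30000 (60.2%) were not in the IDR list and had their summit more than 500 bp from every IDR summit. Another 1788 regions (5.96%) were outside the IDR list but had a summit within 500 bp of an IDR summit, and these were kept apart. The regions were therefore chosen by measured values, since the IDR list was exactly the 10160 regions of highest pooled signal. The deposited list is named as holding peaks and background together, so the 18052 regions cannot be taken to be binding sites one by one.

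The embryos were 0 to 24 h old, of mixed sex, and carried a transgene in which Labial is fused at its C terminus to GFP. There was 1 group of 3 biological replicates, each immunoprecipitated with anti-GFP antibody. Every replicate had its own list of 30000 ranked regions, and the replicates and the pooled list shared a control experiment. No precipitation from embryos without the fusion was analysed here. Whole embryos over a day of development hold all embryonic cell types, so signal in a few cells and weak signal in many cannot be told apart.

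Labial is the most anterior homeotic (Hox) transcription factor of the fly and is known for its roles in the embryonic head and the midgut endoderm. Like other Hox proteins it binds DNA through a homeodomain that recognises short AT-rich words, and it gains specificity by binding together with the homeodomain cofactors Extradenticle (Exd) and Homothorax. IDR compares the ranks of regions between replicates. The list kept here was the 10160 regions of highest pooled signal, so a region below the threshold was not shown by itself to fail to repeat. Regions below such a threshold can hold weakly occupied sequence as well as background.

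To show what these regions look like, 9 summit-centred windows of 121 bp are printed from the plus strand of NCBI Release 6 of the Drosophila melanogaster genome, which uses dm6 coordinates. Windows with annotated exon sequence were passed over. Capitals mark matches, on either strand, to any of 6 motifs, of which 4 occur in these windows: the Exd-Lab words TGATGGAT and TGATTGAT, GATA preceded by A or T and followed by A or G, the homeodomain core TAATTA and the CA repeat CACACACA. A match is a description of letters and not a mapped binding site. The first 3 windows belong to the strongest sub-threshold regions that had an Exd-Lab word within 60 bp of the summit and a summit within 100 bp in every replicate list. They lie between genes near CG14537 (chr2L:7837475-7837595), in an intron of CG31121 (chr3R:24890003-24890123) and in an intron of rg, a gene for an A-kinase anchor protein (chrX:5122029-5122149). Their signals were 198, 195 and 194. In replicates 1, 2 and 3 the CG14537 region ranked 12939, 8178 and 10530, the CG31121 region 11183, 7925 and 16887, and the rg region 11872, 9436 and 12286, so each stood in the middle of the 30000 regions or above it in every list apart from the CG31121 region in replicate 3.
near CG14537: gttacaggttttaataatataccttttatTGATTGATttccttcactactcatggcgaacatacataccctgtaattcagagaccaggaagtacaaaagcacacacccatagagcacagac
CG31121 intron: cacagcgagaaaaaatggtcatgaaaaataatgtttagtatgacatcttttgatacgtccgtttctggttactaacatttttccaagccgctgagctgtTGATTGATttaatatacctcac
rg intron: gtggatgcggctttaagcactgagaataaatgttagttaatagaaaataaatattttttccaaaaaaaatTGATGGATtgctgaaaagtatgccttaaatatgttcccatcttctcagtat

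The next windows belong to the strongest regions with a CA repeat or a GATA word, again with a summit in every replicate list. The CA repeat windows lie 185 bp from a start site of the dopamine receptor gene Dop1R2 (chr3R:29660109-29660229) and in an intron of baz, which encodes the cell polarity protein Bazooka (chrX:17186548-17186668). The GATA windows lie between genes 3601 bp from a start site of the actin gene Act5C (chrX:5897200-5897320) and in an intron of CG32700 (chrX:9544296-9544416). All 4 had signals of 197 to 198. Ranks in replicates 1, 2 and 3 were 17275, 9193 and 11094 for the Dop1R2 region and 12263, 10026 and 12684 for the baz region. They were 9935, 8277 and 14208 for the Act5C region and 11363, 12343 and 11542 for the CG32700 region.
Dop1R2 promoter: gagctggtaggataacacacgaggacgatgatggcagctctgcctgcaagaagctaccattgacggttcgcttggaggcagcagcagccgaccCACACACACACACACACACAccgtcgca
baz intron: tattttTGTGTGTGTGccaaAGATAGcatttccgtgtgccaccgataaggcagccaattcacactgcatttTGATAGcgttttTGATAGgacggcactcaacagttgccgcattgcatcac
near Act5C: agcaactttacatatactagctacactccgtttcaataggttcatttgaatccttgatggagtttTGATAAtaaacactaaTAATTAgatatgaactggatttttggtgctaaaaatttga
CG32700 intron: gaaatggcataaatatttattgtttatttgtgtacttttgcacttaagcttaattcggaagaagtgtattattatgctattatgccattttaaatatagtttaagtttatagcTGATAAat

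The last windows are the strongest sub-threshold regions that had no summit within 100 bp in any replicate list. One lies in an intron of tara (chr3R:16256239-16256359), where the nearest replicate summits were 131, 355 and 186 bp away in replicates 1, 2 and 3. The other lies 17115 bp from CG12290, counted to its start site (chr3R:26213073-26213193), with replicate summits 146, 145 and 115 bp away. Their signals were 193 and 176, and both had replicate summits beyond the matching distance but within 150 bp in at least 1 list.
tara intron: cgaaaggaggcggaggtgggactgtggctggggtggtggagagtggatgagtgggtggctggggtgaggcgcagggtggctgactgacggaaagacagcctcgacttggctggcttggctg
near CG12290: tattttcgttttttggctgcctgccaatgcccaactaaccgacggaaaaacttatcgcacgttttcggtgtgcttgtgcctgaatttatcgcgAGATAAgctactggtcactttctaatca

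The signal of a region is the submitters' own value and serves here only to rank regions within a list. It ran from 67.9 to 197.941 in the sub-threshold regions, with a median of 102, and from 197.943 to 11184.6 in the IDR peaks, with a median of 355. The −log10 q-value of the sub-threshold regions had a median of 0.884 and a highest value of 2.11, and 10453 of them (57.9%) had a value under 1. At the threshold the values were nearly equal. The first region outside the IDR list lay in an intron of kmr with a signal of 197.941, and the last inside lay in an intron of Kank with 197.943, after those in introns of drl and rib with 197.958 and 197.951. The second region outside, in an intron of Pdp1 with 197.925, lay 200 bp from an IDR summit and was one of the 1788 kept apart. The distance rule was as sharp: 13 sub-threshold regions lay 501 to 510 bp from an IDR summit, and 5 excluded regions lay 491 to 500 bp away. The excluded regions were 199 to 499 bp from an IDR summit, with a median of 205 bp, and 1571 of them (87.9%) were within 250 bp. Of the sub-threshold regions, 18019 (99.8%) were 424 bp wide, against 6384 IDR peaks (62.8%). The 33 narrower ones spanned 106 to 195 bp, had a median signal of 172, and 25 of them lay within 2000 bp of an IDR summit.

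Support in the replicates was counted as a summit within 100 bp of the pooled summit. Of the sub-threshold regions, 5007 (27.7%, 95% exact Clopper-Pearson interval 27.1 to 28.4%) had one in all 3 replicate lists, against 9022 IDR peaks (88.8%) and 48.1% of all regions of the pooled list. A further 6927 sub-threshold regions (38.4%) had a summit in 2 lists, 5164 (28.6%) in 1 list and 954 (5.28%) in none, while 7 IDR peaks had none. The pooled list was made from the same reads as the replicate lists and chose these regions by signal, so these counts describe support and test nothing. Intervals here and below cover counting error only, and the read depth is unknown.

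The 3 replicates contributed about equally. The shares of sub-threshold regions with a summit in replicates 1, 2 and 3 were 60.2, 63.6 and 64.8% (62.9 ± 2.38%, SD, n = 3), against 95.6, 95.3 and 96.5% of IDR peaks (95.8 ± 0.650%, SD, n = 3). Regions found in 1 replicate alone numbered 1450 in replicate 1, 1815 in replicate 2 and 1899 in replicate 3, so no single replicate supplied most of them. The matched summits sat at median ranks 18178.5, 17872 and 18210.5 of 30000 in the replicate lists, against 5217, 5007 and 5105.5 for the IDR peaks. Among the 10160 strongest regions of each replicate were 718, 903 and 705 sub-threshold regions. In all, 1968 of them (10.9%) were that strong in 1 replicate, 179 (0.992%) in 2 and 0 in all 3, against 6570 IDR peaks (64.7%) in all 3.

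Support followed signal within the sub-threshold regions, as the plot of support by signal shows. Of 10 equal groups by signal, in the weakest 0.609% had a summit in all 3 lists and 21.8% in none. In the strongest group, 75.2% had a summit in all 3 lists and 0.111% in none. The share at promoters also differed along this order, from 9.03% in the weakest group to 23.2% in the strongest, and the intergenic share from 35.4% to 24.2%. The intron share stayed between 48.8 and 53.7% in every group. Signal was used by the rule and by the pooled ranking, so these shares are a description.

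**Figure D1:**
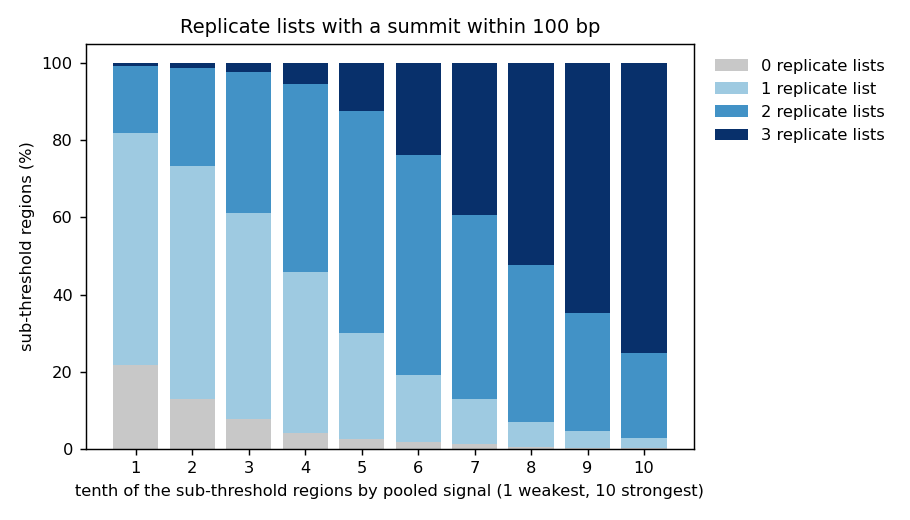
Bars show the share of the 18052 sub-threshold regions, in 10 groups from the weakest (1) to the strongest (10) by pooled signal, that had a summit within 100 bp in 0, 1, 2 or 3 replicate lists. The dark part, support in all 3, is 0.609% of the weakest group and 75.2% of the strongest.

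Some of the strongest sub-threshold regions had close ranks in the 3 replicates and others did not. The kmr region (3R:13735888-13736311, 631 bp from a start site) ranked 14247 in replicate 1 and 9204 in replicate 3 and had no summit in replicate 2. A region in an intron of Pka-R2, which encodes a regulatory subunit of protein kinase A (2R:10002519-10002942), ranked 10023 in replicate 1 and 23162 in replicate 3 and was also missing in replicate 2. The region in an intron of sbb (2R:18352957-18353380) ranked 15743, 7366 and 14292. At the promoter of kek3, a leucine-rich repeat transmembrane protein gene, the region (2L:15552545-15552968, 34 bp from the start site) ranked 9787, 12636 and 12002. This promoter was 28365 bp from the nearest IDR summit, whereas the region 19 bp from a start site of cnc (3R:23221730-23222153), which encodes a bZIP factor of the embryonic head, was 852 bp from one and ranked 10666, 11639 and 19564. The CG34007 promoter region (2L:20494726-20495149) ranked 24464, 11107 and 14660. Closer ranks were seen near CG15040 (9538, 10736 and 12942), in an intron of tei (10136, 9757 and 13823, nearest start site that of CG6209) and in the CG32700 intron printed above. The regions in an intron of CG8641, nearest to CG32391, and at the CG8646 promoter ranked 15494, 11102 and 8936, and 14964, 11922 and 9978.

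The best median replicate rank belonged to a region 51 bp from a start site of the helicase gene Helz (3L:14789813-14789975). It ranked 6421, 6493 and 20425, so that 2 replicates placed it well inside their strongest 10160 and the third did not. A region in an intron of cno, the fly afadin gene (3R:5207328-5207751), ranked 18038, 8410 and 7930. A region 3140 bp from a start site of Acp26Ab, an accessory gland protein gene (2L:5889510-5889933), ranked 7967, 23865 and 8506. One in an intron of Tis11, a zinc-finger gene of mRNA decay (X:12667116-12667277), ranked 8538, 25258 and 4692. The Gmap region ranked 8582, 13097 and 8196. Those of Helz, Tis11 and Gmap were among the 33 narrow regions, and those of Helz, cno and Tis11 lay 564, 607 and 605 bp from an IDR summit. At the other end, the 5 weakest regions had signals of 67.9 and lay near CG42813, lace, CG12362, heph and kmr; 4 of them had a summit in 1 replicate list and the one in kmr had none.

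Each summit was placed, in this order, at a promoter (a start site of a protein-coding gene within 500 bp), in a 5' UTR, a coding exon, a 3' UTR, an intron or between genes. Because bases near IDR summits could not hold a sub-threshold region, the shares were set beside those of the 124.5 Mb of arm sequence more than 500 bp from every IDR summit, which is 93.0% of the arms. Promoters held 2639 sub-threshold regions (14.6%, interval 14.1 to 15.1%), against 3581 IDR peaks (35.2%), 22.7% of all pooled regions and 9.80% of the available bases. Introns held 9210 (51.0%), against 44.0% of IDR peaks and 39.0% of bases. Intergenic sequence held 5450 (30.2%), against 18.3% of IDR peaks and 30.8% of bases. The promoter share of the sub-threshold regions thus lay between those of the IDR peaks and of the available bases, and was 1.49 times the latter. These bases leave out the sequence around IDR summits, so no ratio to them is given for IDR peaks. Of the 1788 excluded regions next to IDR summits, 33.1% were at promoters.

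Coding exons were the class with the fewest summits for their length. They held 293 sub-threshold regions (1.62%), against 14.8% of available bases, a ratio of 0.109. They held 34 IDR peaks (0.335%). The 3' UTRs held 1.73% of sub-threshold regions and 1.34% of IDR peaks, against 4.73% of bases. The 5' UTRs outside promoters held 0.820 and 0.748%, close to their 0.777% of bases. Coding exons held 0.443% of the strongest of those 10 groups and 2.44% of the weakest, and 0.739% of the regions with a summit in all 3 lists against 2.10% of those with none. GC content moved with this class: windows of 201 bp averaged 51.8% GC in coding exons of the available sequence and 40.5% outside them, and its part in the shares was not tested. The 293 regions in coding exons averaged 52.9% GC.

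**Figure D2:**
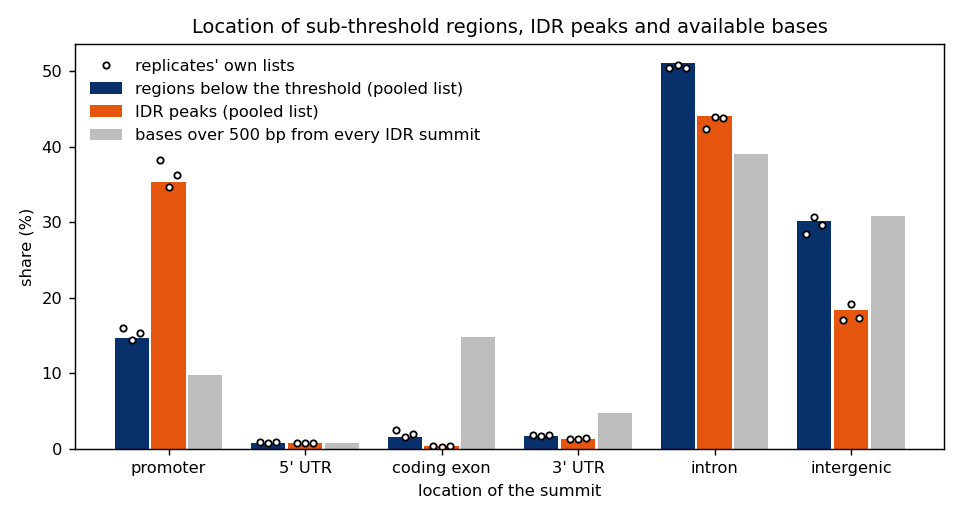
Bars show the share of sub-threshold regions, of IDR peaks and of bases more than 500 bp from every IDR summit in each location class, in percent. Circles show the same 2 shares within each replicate's own list, split at its 10160th region, and in promoters, introns, intergenic sequence and coding exons the circles of the regions below do not overlap those of the strongest regions.

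The same split was then made in each replicate's own list, which gives a spread between replicates: the 10160 strongest regions on one side, and the regions below them more than 500 bp away on the other (18114, 17868 and 17973 in replicates 1, 2 and 3). Promoters held 16.0, 14.4 and 15.3% of the regions below, against 38.2, 34.7 and 36.2% of the strongest. The difference was -21.1 ± 0.973 percentage points (SD, n = 3) and had the same sign in 3 of 3 replicates. Introns held 50.5 ± 0.233% of the regions below and 43.3 ± 0.921% of the strongest, intergenic sequence 29.6 ± 1.16% and 17.9 ± 1.11%, and coding exons 1.99 ± 0.415% and 0.358 ± 0.0542% (SD, n = 3 each). In every class the 2 sets of replicate values did not overlap. An exact two-sided sign-flip permutation test gave p = 0.25 for each of the 6 classes (adjusted p = 0.25), the smallest value that 3 replicates allow, so no class could pass a threshold of 0.05.

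At promoters, a class that ends at 500 bp by definition, the sub-threshold summits lay somewhat farther from start sites than the IDR summits. Their summits lay a median of 129 bp from the nearest start site, against 116 bp for IDR peaks, and 44.3 and 45.1% lay within 100 bp. In the replicates' own lists the medians were 129 ± 2.00 bp below and 113 ± 5.03 bp among the strongest (SD, n = 3). The shares within 100 bp there were 43.2 ± 0.655% below and 46.0 ± 1.45% among the strongest (SD, n = 3). Over all classes, the distance to the nearest protein-coding start site had a median of 3754 bp, against 1372 bp for IDR peaks, and 23.5% of sub-threshold regions lay more than 10 kb from one, against 12.8% of IDR peaks.

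Sub-threshold regions were densest near IDR peaks. Between 501 and 1000 bp from an IDR summit there were 337 per Mb of sequence at that distance, and between 1001 and 2000 bp there were 316. The density was 202 per Mb at 2001 to 5000 bp, 133 at 5001 to 10000 bp, 106 at 10001 to 20000 bp and 98.2 at 20001 to 50000 bp. Beyond 50000 bp it was 12.6 per Mb, where 17.0% of the available bases held 268 regions (1.48%). Support in all 3 lists was 31.0% in the nearest group and 25.7% in the farthest, and the median signal 110 and 91.4. Neighbours were common: 3677 sub-threshold regions (20.4%) had another within 500 bp.

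**Figure D3:**
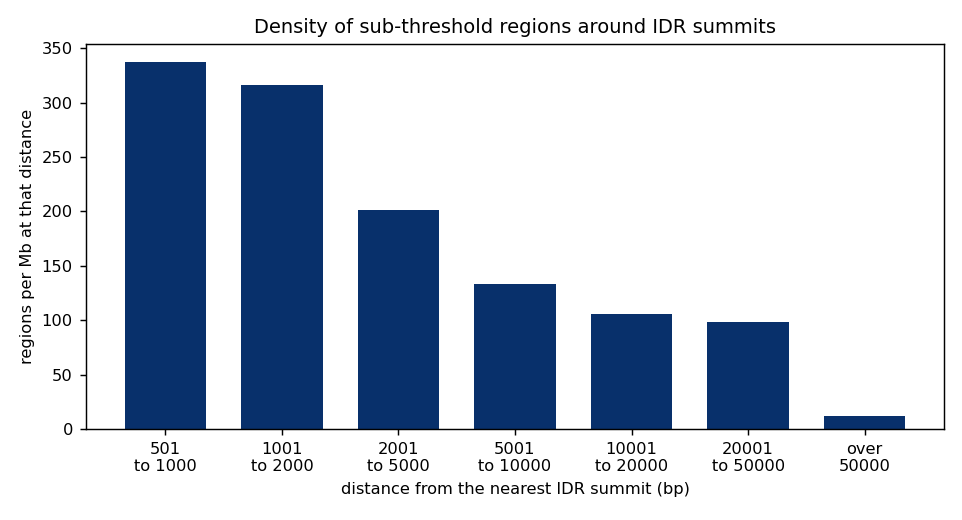
Bars show sub-threshold regions per Mb of arm sequence at each distance from the nearest IDR summit, in bp; distances up to 500 bp are left out by the rule. The density is 337 per Mb in the nearest group and 12.6 per Mb beyond 50000 bp.

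The large arms held 128 to 161 sub-threshold regions per Mb of available sequence, with 2L highest and 2R lowest. Chromosome 4 held 10 regions, 7.47 per Mb, beside 9 IDR peaks, and 8, 6 and 19 regions of the replicates' own lists. Annotated transposable elements held 26 summits (0.144%), against 18 IDR summits (0.177%) and 6.35% of available bases. Whether such bases could be aligned to uniquely is not given in the sources used here, and their part in the density far from IDR peaks was not tested. With soft-masked bases left out, the promoter share was 15.2% of sub-threshold regions, against 10.6% of bases, and the coding exon share 1.82%, against 17.9%.

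Within introns, sub-threshold regions were found mainly in genes that also held an IDR peak. Of the 9210 intronic regions, 8507 (92.4%) lay in a gene whose span, with 1000 bp on each side, held one, while 69.6% of available intron bases lay in such genes. Long genes did not hold more than their length: 3860 (41.9%) of the intronic regions were in genes over 50 kb, against 31.2% of intronic IDR peaks and 49.0% of available intron bases. Over all protein-coding genes there were 14.0 sub-threshold regions per 100 kb of available gene sequence, counting overlapping genes each time.

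The gene with most sub-threshold regions was kirre, an immunoglobulin-family gene of myoblast fusion, with 78 over 394 kb and 21.8 per 100 kb, beside 40 IDR peaks. The Wnt receptor gene fz2 held 50, or 62.2 per 100 kb, beside 16 IDR peaks, and bun, a TSC-22 family regulator, held 45, or 68.5 per 100 kb, beside 29. The Krüppel-like factor gene luna, the teneurin gene Ten-a, the translational repressor gene pum, the splicing regulator gene Rbfox1 and the ecdysone-induced receptor gene Eip75B held 40 to 48 each. Of the 13945 protein-coding genes, 4766 (34.2%) held a sub-threshold region within their span and flanks, and 1995 (14.3%) held one but no IDR peak. Among these last, CG43795 held 13, CG14459 and the Slit receptor gene robo3 12 each, the chitin deacetylase gene Cda5 and the immunoglobulin-family gene side-II 11 each, and the semaphorin gene Sema2b, dpr13 and klg 10 each.

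At promoters, 1737 genes (12.5% of the 13945) had a sub-threshold region and no IDR peak, 3558 (25.5%) had an IDR peak, and 8650 (62.0%) had neither. Of the 3558, 526 also had a sub-threshold region. The median signal of the strongest sub-threshold region at those 1737 promoters was 124. The 26 gene lists below were chosen by function and cell type, and their counts are set beside the 12.5 and 25.5% of all genes. A share near these is no result about a list. A gene with an IDR peak at a promoter could not count as having a sub-threshold region alone. Lists with many IDR peaks therefore had fewer genes left for that count.

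Among the homeotic genes, 2 of 8 had a sub-threshold region and no IDR peak at a promoter, and 2 had an IDR peak. Ubx, which specifies the posterior thorax and the first abdominal segment, had one 14 bp from a start site with a signal of 157, ranked 15198, 12401 and 18294 in the replicates, and 29992 bp from the nearest IDR summit. The promoter region of pb, the proboscipedia gene of the mouthparts, had a signal of 116 and ranked 22468, 27864 and 19000. Over whole gene spans, Antp held 17 sub-threshold regions beside 8 IDR peaks, Ubx 11 beside 2, pb 6 beside 0, Abd-B 4 beside 1 and abd-A 3 beside 0. Dfd and Scr held 0 of either kind. The lab gene itself, which encodes the protein that was tagged, held 7 sub-threshold regions beside 7 IDR peaks, 57.4 per 100 kb against 14.0 over all genes. Those 7 had signals of 107 to 170 and 4 were found in all 3 replicate lists. The lab span is 17.2 kb, and short genes can reach such densities with few regions. The myosin light chain gene Mlc2 held 4, or 94.9 per 100 kb, and the ribosomal protein gene RpL40 held 2, or 69.9 per 100 kb. Sub-threshold regions were also densest near IDR peaks in general, so the value over all genes is not a matched comparison for lab. How much lab sequence the transgene carries is not stated in the labels, and its part in the lab values was not tested.

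Of the Hox cofactor genes, 2 of 6 had a sub-threshold region and no IDR peak at a promoter and 1 had an IDR peak. The Homothorax gene hth held 49 sub-threshold regions over its span, 41.7 per 100 kb, beside 19 IDR peaks. Their signals ran from 69.4 to 197, with a median of 89.0, and 11 of the 49 were found in all 3 replicate lists. The strongest, in an intron 34558 bp from a start site, ranked 12626, 10273 and 10285. The zinc-finger gene tsh held 4, of which 0 were found in all 3 lists, and the one at its promoter had a signal of 106 and ranked 9937 in replicate 1 alone. The disco promoter region had a signal of 76.6 and ranks of 18924 and 20201 in replicates 1 and 3. The disco-r gene held 2 sub-threshold regions beside 2 IDR peaks. The sub-threshold ones had signals of 118 and 133, and the stronger, in a 5' UTR, ranked 21426, 12830 and 21449. Neither exd, the Extradenticle gene, nor tio held a sub-threshold region.

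Other regulators of the early embryo were read by list. Of 24 head and neural progenitor regulators, 6 had a sub-threshold region and no IDR peak at a promoter and 4 had an IDR peak. The 3 strongest were those of esg, a Snail-family zinc-finger gene (signal 184, ranks 11373, 11991 and 15703), oc, the homeodomain gene orthodenticle (signal 175, ranks 12686 and 11987 in replicates 1 and 3), and btd, an Sp-family head gap gene (signal 148, ranks 10759 and 17709 in replicates 1 and 2). The esg region was 69088 bp from any IDR summit. Of 13 endoderm and midgut regulators, 1 had a sub-threshold region alone and 8 had an IDR peak. The 1 was Dr (signal 132), a homeodomain gene known from neural and muscle patterning, whose place in this list is uncertain. Segment polarity genes gave 3 of 12, namely arm, the fly β-catenin gene (signal 194, ranks 12420, 10557 and 8937), en (81.8) and hh (79.8), the last 2 found in 1 replicate each. Among 11 gap and terminal genes croc alone, a forkhead gene, had one (181), and among 9 pair-rule genes odd alone (107).

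The Dpp and EGF receptor pathway genes gave 3 of 18, beside 10 with an IDR peak: put, a type II receptor (signal 169), Mad, the receptor-regulated Smad (118), and sax, a type I receptor (87.2). These 18 genes held 103 sub-threshold regions over their spans, beside 88 IDR peaks. That was 31.7 per 100 kb, against 14.0 over all genes and 31.0 for the Hox cofactor genes. Since sub-threshold regions were densest near IDR peaks in general, the value over all genes is not a matched comparison here either. Of the 11 E(spl) genes, which are Notch targets, 0 had a sub-threshold region alone at a promoter and 4 had an IDR peak. Heat shock genes gave 1 of 11, Hsp23 (103), and insulator and GAGA factors 1 of 12, su(Hw) (123).

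Among markers of cell types, muscle genes had the highest share of the 26 lists: 7 of 15 (46.7%) had a sub-threshold region and no IDR peak at a promoter, and 4 had an IDR peak. The troponin I gene wupA had a signal of 174 and ranks of 11669, 24102 and 10957, the myosin heavy chain gene Mhc 159 and ranks of 11982, 16331 and 14630, and the myosin light chain gene Mlc2 158 and ranks of 11267, 11778 and 20352. All 3 lay within 80 bp of a start site and were found in every replicate. Glia markers gave 4 of 9 and neuron markers 4 of 12. The glial examples were nrv2, a sodium pump subunit gene (139), the glutamine synthetase gene Gs2 (101) and the glutamate transporter gene Eaat1 (74.5). The neuronal ones were the active zone gene brp (171), the sodium channel gene para (142) and the GABA receptor gene Rdl (136). Epidermis and trachea markers gave 2 of 12, ovo and Ubx, the second also a homeotic gene. Hemocyte and fat body markers gave 0 of 12, beside 2 with an IDR peak, and germ cell markers 0 of 10, beside 3. These lists are short, and in whole embryos a count by list does not say in which cells a region was precipitated.

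Housekeeping lists differed in how many genes had an IDR peak. Of 86 cytosolic ribosomal protein genes, 74 had an IDR peak at a promoter and 2 had a sub-threshold region alone, RpS5b (signal 148, ranks 11586, 25161 and 10650) and RpL40 (92.6, replicate 3 alone), while 10 had neither. Mitochondrial ribosomal protein genes gave 4 of 73, with mRpL35 (189), mRpS17 (188) and mRpL2 (142) the strongest, beside 25 with an IDR peak and 44 with neither. Proteasome subunit genes gave 2 of 48, Rpn12 (192) and Rpt6R (78.1), beside 11 with an IDR peak and 35 with neither. The Rpt6R region had no summit in any replicate list.

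In lists of sensory, cuticle, gut and reproductive tissues, 75 to 100% of genes had neither kind of region, against 62.0% of all genes. An IDR peak was at 0 to 6.25% of their promoters by list, against 25.5% of all genes. The shares with a sub-threshold region alone in the odorant binding (13.7%) and cuticle (11.0%) lists were near the 12.5% of all genes. Of 180 chemosensory receptor genes, 7 had a sub-threshold region alone, 2 an IDR peak and 171 neither. The gustatory receptor gene Gr77a had a signal of 158 and ranks of 20907, 13567 and 17362, Ir76b, an ionotropic co-receptor gene, 117 and Ir67c 95.5. Odorant binding protein genes gave 7 of 51, among them Obp83cd (178), Obp83ef (133) and Obp57d (106), and 2 had an IDR peak. Cuticle protein genes gave 10 of 91, among them Cpr65Ea (191), Lcp65Ag2 (123) and Lcp65Ad (117), and 1 had an IDR peak. The Jonah serine proteases of the gut gave 3 of 16, Jon65Aiv (175), Jon25Bii (124) and Jon25Biii (80.3). None of 8 chorion and vitelline membrane genes and none of 18 male-specific transcripts had one. Neighbouring genes of such clusters can share 1 region, so their counts are not independent.

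**Figure D4:**
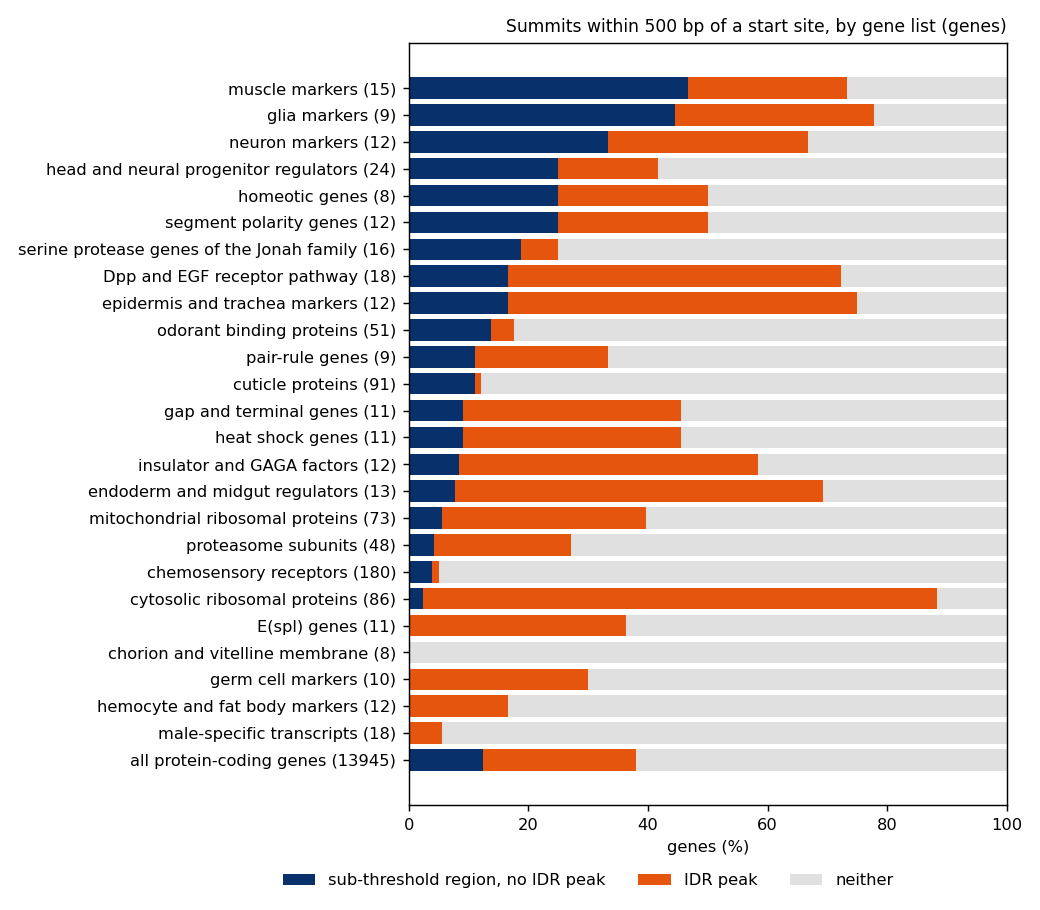
Bars show, for each gene list of at least 8 genes, the share of genes with a sub-threshold region and no IDR peak within 500 bp of a start site, with an IDR peak there, and with neither, in percent; numbers of genes stand in brackets. All protein-coding genes, at the bottom, have 12.5% in the first state, muscle markers 7 of 15 genes and cytosolic ribosomal protein genes 2 of 86. A gene with an IDR peak cannot be in the first state, and 74 of those 86 genes had one.

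The letters around the summits were searched on both strands for 11 motifs, up to 100 bp from the summit, and the share of windows with a match was set beside that of all 618308 windows of 201 bp in the available sequence. The Exd-Lab words shown in the printed windows, TGATGGAT or TGATTGAT, were in 540 sub-threshold regions (2.99%, interval 2.75 to 3.25%), against 339 IDR peaks (3.34%) and 1.93% of all windows, 1.55 times the windows. With windows weighted to the regions' location classes the ratio was 1.52. In the replicates' own lists the share was 2.78 ± 0.194% below and 3.23 ± 0.266% among the strongest (SD, n = 3). The share was not higher with more support: it was 2.96% in the regions found in all 3 lists and 3.77% in the 954 found in none. Of the 7 regions in lab, 2 held such a word, and so did 2 of the 49 in hth.

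The CA repeat, CACACACA, was the motif whose share in sub-threshold regions most exceeded that in IDR peaks. It was in 1441 regions (7.98%), against 630 IDR peaks (6.20%) and 3.85% of windows. This was 2.07 times the windows, or 1.84 times windows weighted to the regions' location classes. The replicates' own lists had it in 7.82 ± 0.0715% of the regions below and 6.19 ± 0.353% of the strongest, higher below in 3 of 3 replicates. The GATA words behaved the other way, with 32.8% of sub-threshold regions, 40.3% of IDR peaks and 29.8% of windows, and 32.6 ± 0.129% against 39.9 ± 0.466% in the replicates' own lists (SD, n = 3). The exact two-sided sign-flip permutation p was 0.25 for both motifs and for the Exd-Lab words, the smallest possible with 3 replicates, over 11 motifs.

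The homeodomain core TAATTA was in 12.0% of sub-threshold regions, 14.7% of IDR peaks and 12.5% of windows. With windows weighted to the regions' location classes, the core was in 13.7% of windows, and the sub-threshold share was 0.873 times that. In the replicates' own lists the core was in 12.2 ± 0.318% of the regions below and 14.7 ± 0.534% of the strongest (SD, n = 3), lower below in 3 of 3 replicates. The Exd-Scr type word TGATTAAT was in 1.67, 1.86 and 1.36%. The GAGA word GAGAGAG was in 3.64%, against 4.91% of IDR peaks and 2.23% of windows, and in 3.76 ± 0.0794% below against 5.15 ± 0.156% among the strongest in the replicates' own lists (SD, n = 3). Core promoter words were scarcer than in IDR peaks, which lay more often at promoters (35.2 against 14.6%). The DNA replication element TATCGATA was in 0.659%, against 1.98% of IDR peaks and 0.527% of windows. The element known as Motif 1 was in 0.260%, against 0.787 and 0.0919%. At promoters alone, TATCGATA was in 2.50% of sub-threshold regions and 1.61% of windows, and Motif 1 in 1.40 and 0.669%. Outside them TATCGATA was in 0.344 and 0.408%, and Motif 1 in 0.0649 and 0.0291%. The part of location in the difference from IDR peaks was not tested. The Zelda word CAGGTAG was in 0.859, 0.866 and 1.10%, the E-box CAGGTG in 6.49, 6.25 and 7.93%, and a run of A, AAAAAAAA, in 12.3, 13.6 and 10.4%. An Exd-Lab match can run into a GATA match where their letters overlap. GC content of the same windows averaged 42.1% in sub-threshold regions, 38.9% in IDR peaks and 42.2% in all windows. In the replicates' own lists it was 42.2 ± 0.245% below against 39.0 ± 0.497% among the strongest (SD, n = 3). All windows include those centred in coding exons, which averaged 51.8%, while windows outside coding exons averaged 40.5%. The sub-threshold regions averaged 44.2% at promoters, 41.3% in introns and 41.8% between genes, so their GC content was not equal to that of windows outside coding exons. AT-rich words move with GC content, and its part in these shares was not tested.

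**Figure D5:**
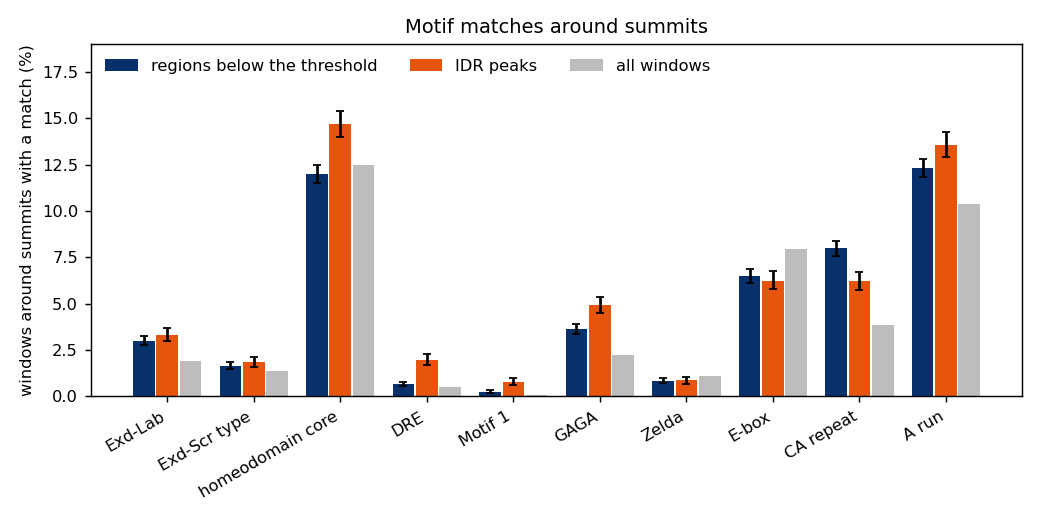
Bars show the share of windows of 201 bp with a match, in percent, around sub-threshold summits, around IDR summits and in all windows more than 500 bp from every IDR summit; error bars are 95% exact intervals for counting error. GATA, at 32.8, 40.3 and 29.8%, is left off the scale, and the CA repeat is higher in sub-threshold regions (7.98%) than in IDR peaks (6.20%).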

How the data were processed

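The 3 replicates were ChIP samples of Labial-GFP embryos, sonicated to 200 to 800 bp per the labels. The authors deposited, for each replicate and for the pool, a list of 30000 regions, and an optimal IDR list. The authors' deposited values, a signal and a −log10 q-value per region, were used only to rank or describe. Neither the aligner nor the peak caller nor the threshold of IDR is given in the sources used here, and depth is unknown.

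Regions of the pooled dm6 list were split by identity with IDR rows and by distance. Replicate summits matched within 100 bp. Genes came from Ensembl release 115 and bases from NCBI Release 6; coordinates are 1-based. Gene spans had 1000 bp flanks. Shares have 95% exact Clopper-Pearson intervals. All regions and the whole available sequence served as the fixed background. Sign-flip permutation tests over the 3 replicates were exact and two-sided, with Benjamini-Hochberg adjustment over 6 location classes. The replicates were counted as separate because the labels call them biological. No 2 replicate lists shared a region with its signal (0 cases), which shows only that no list was a copy of another. It was not established here that the replicates came from separate embryo collections, so the spread between them may be technical.

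Members, 26 gene lists, 11 motifs and tests were chosen with earlier results of these data known; patterns already seen then are not independent support. Named genes are those nearest the 10 strongest regions, the 10 strongest in all 3 lists, the 5 of best median replicate rank, the 5 weakest and the 3 rows on each side of the threshold, every homeotic and cofactor gene, and up to 3 per other list by promoter signal; genes with most regions and the printed windows were added. The symbols h, yan, Lz, nos, svb and dys matched no gene. Splitting, matching, classes and distances were checked on simulated data. Alternatives changed the distance, matching and start site windows, the build, the signal range and each replicate. Python 3.11.15, numpy 2.4.6, pandas 2.3.3, scipy 1.17.1 and matplotlib 3.10.9 were used.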

Additional observations from a re-analysis of the deposited data

How the results depend on the processing

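No paired analysis was possible because the 3 replicates form 1 group, so no groups share replicate numbers; the regions below and the strongest were already compared within each replicate. Support depended on the signal range, the matching rule and the number of lists. The share of sub-threshold regions found in all 3 replicate lists was 27.7% as reported, 15.3% with summits within 50 bp, 39.3% within 200 bp, 39.9% at a reciprocal overlap of at least 50%, 25.4% in the dm3 lists and 51.1% in the 9026 regions of higher signal; counted over 2 replicates only, it was 39.6 to 41.7%, where fewer lists had to agree. The share found in none, 5.28%, was 11.7% within 50 bp, 2.44% within 200 bp and 2.52% by overlap. The promoter share, 14.6%, was 10.6% and 22.7% with start site windows of 250 and 1000 bp, 13.7% more than 1000 bp from IDR summits and 18.6% in the stronger regions. Under those 4 settings the intergenic share, 30.2%, was 31.6, 28.2, 31.5 and 27.3%. The intron share, 51.0%, was 52.8 and 46.2% with those start site windows and, added after seeing the data, 50.3% without soft-masked bases. The coding exon share, 1.62%, was 1.18% with the 1000 bp window, added after seeing the data, and 0.953% in the stronger regions. The Exd-Lab share, 2.99%, was 1.67% and 5.02% in windows of 50 and 200 bp each side and 3.21% in the stronger regions; its ratio to all windows stayed above 1 in each window size tried. The 1737 genes with a sub-threshold region alone became 662 when the region had to be found in all 3 lists, also added after seeing the data. Without soft-masked bases, 2 classes changed side relative to their share of bases, again added after seeing the data. The intergenic share was 0.980 times that of all available bases and 1.06 times that of unmasked bases. The 5' UTR share went from 1.06 to 0.923 times. The promoter, intron, coding exon and 3' UTR shares stayed on the same side. The promoter difference between the regions below and the strongest kept its sign without each replicate in turn.

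With 3 replicates in 1 group, no precipitation without the tag and no read counts, occupancy and background cannot be told apart for a single region.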
